A study of Mus musculus with 42 samples.

Results

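The 10 genes described here are identity genes of Kupffer cells, the resident macrophages of the liver: Clec4f, Timd4, Cd5l, Marco, Cd163, Folr2, Csf1r, Adgre1, Aif1 and Cd68. They were taken by name from the 47729 genes in the files, and all 10 were present. RNA was measured in livers of untreated Gfi1Cre/+;Rpl22HA/HA mice. In these, Cre recombinase made from the Gfi1 locus permanently switches on an HA-tagged form of the ribosomal protein Rpl22. This takes place in cells that express Gfi1 or did so earlier, and per the study the liver expresses it at least in the embryo. RNA bound to the tagged ribosomes was pulled down with an anti-HA antibody (IP). Per the study, an equal amount of liver was extracted without the pulldown, and its RNA served as control (input). The same genotype was used for both fractions, and no liver without Cre was analysed here. The growth and extraction notes gave the age as postnatal day 30, whereas the stage label of the samples said P1. Each of 3 mice gave an IP and an input RNA, and these were made into libraries by 7 protocols, 42 libraries in all: TruSeq from 70 ng (Tru70) and 4 ng (Tru4), SMART-Seq v4 from 4 ng (SMTseq4) and 0.25 ng (SMTseq0.25), and NuGEN Ovation (NuG), NEBNext Directional (NEB) and SMARTer Stranded (SMTer) from 4 ng. The protocols share the 3 mice and are not independent animals, and the SMART-Seq v4 libraries were sequenced at another centre, which cannot be told apart from the kit.

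Kupffer cells line the liver sinusoids and clear bacteria, dying cells and aged erythrocytes from the blood. Their survival depends on the receptor Csf1r and its ligands, and their identity on transcription factors that include PU.1, encoded by Spi1. Clec4f and Timd4 mark the resident Kupffer cell, Cd5l, Marco and Cd163 belong to the scavenger receptor cysteine-rich family, and Adgre1 (F4/80), Csf1r, Aif1 (Iba1) and Cd68 are shared by macrophages of many tissues. The members lie apart in the genome, Clec4f and Cd163 on chromosome 6, Timd4 and Cd68 on 11, Adgre1 and Aif1 on 17, Cd5l on 3, Marco on 1, Folr2 on 7 and Csf1r on 18. All are annotated as protein-coding. In the annotation, 975 exonic bases of Folr2 (63.1% of its exon length) were shared with Gm10602 on the opposite strand, and 873 of Csf1r (15.1%) with Hmgxb3 on the opposite strand, so counts of both genes are uncertain to that extent.

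PU.1 binds DNA at a purine-rich core, GAGGAA. Promoters of 300 bases (250 before and 50 from the start site, RefSeq on GRCm38.p6) were found for 8 of the 10 genes, 9 windows in all because Folr2 had 2. The core stood on either strand in 4 of the 9 windows, and in 28.3% of all 32851 promoters of this length. Those of Cd5l, Marco and Aif1 are shown as examples that hold the letters, and that of Clec4f as one without them. The window of Cd68, not shown, holds 2 matches. All 10 genes rise from input to IP, with or without the letters. Capitals mark the core or its reverse complement. A match is a description of the letters and not a binding site.
Cd5l, chr3:87357631-87357930, plus strand: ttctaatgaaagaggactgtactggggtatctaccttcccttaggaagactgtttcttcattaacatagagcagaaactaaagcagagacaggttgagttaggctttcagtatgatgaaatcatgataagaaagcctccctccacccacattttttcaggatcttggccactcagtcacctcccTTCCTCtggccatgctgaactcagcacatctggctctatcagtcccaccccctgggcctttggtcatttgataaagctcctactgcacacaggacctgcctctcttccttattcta
Marco, chr1:120504975-120505274, minus strand: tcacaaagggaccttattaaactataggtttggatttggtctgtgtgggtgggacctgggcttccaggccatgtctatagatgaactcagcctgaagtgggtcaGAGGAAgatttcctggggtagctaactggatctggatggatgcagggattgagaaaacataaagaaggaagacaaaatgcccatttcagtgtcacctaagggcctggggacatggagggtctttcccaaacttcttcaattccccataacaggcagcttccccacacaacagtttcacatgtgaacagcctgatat
Aif1, chr17:35176003-35176302, minus strand: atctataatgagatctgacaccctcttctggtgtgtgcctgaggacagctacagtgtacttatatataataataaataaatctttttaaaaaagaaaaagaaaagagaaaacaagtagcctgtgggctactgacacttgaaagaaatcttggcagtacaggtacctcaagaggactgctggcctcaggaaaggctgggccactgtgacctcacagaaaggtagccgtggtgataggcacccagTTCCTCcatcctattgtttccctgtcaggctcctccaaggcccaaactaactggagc
Clec4f, chr6:83656067-83656366, minus strand: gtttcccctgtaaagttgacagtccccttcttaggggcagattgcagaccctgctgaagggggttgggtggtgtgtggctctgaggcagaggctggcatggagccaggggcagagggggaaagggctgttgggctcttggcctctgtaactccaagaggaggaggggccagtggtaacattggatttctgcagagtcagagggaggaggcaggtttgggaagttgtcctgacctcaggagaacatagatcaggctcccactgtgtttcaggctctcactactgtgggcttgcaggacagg

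Before the values, the fraction of 8 libraries needs stating. In Tru4, NEB, NuG and SMTer the IP and input labels of mouse 3 were exchanged here, as the study's own table of library statistics has them. The number of detected genes in that table matched 34 of the 42 libraries at the labelled fraction and 42 of 42 after the exchange. The read totals in that table matched the files at the same mouse number in 22 libraries, and in the other 20, in Tru70, Tru4, NEB, NuG and SMTer, they stood with mice 1 and 3 exchanged. Mouse numbers here follow the labels and the numbers of detected genes. With the labels left as they stand, no member passed in these 4 protocols, and 0 of all genes did at an adjusted p under 0.05 by edgeR's quasi-likelihood test (limma for SMTer), with 37 (Tru4), 91 (NuG), 293 (NEB) and 27 (SMTer) genes at an unadjusted p under 0.05. Tru70 and both SMART-Seq v4 protocols were used as labelled.

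Total exon counts ranged from 464199 to 45466334 per library. Hepatocyte markers made up 15.0 to 16.6% of the counts of the Tru70 inputs and 2.77 to 3.10% of the IPs. Gfi1, the gene that drives Cre, was close to the detection limit. It had 0 counts in all 3 inputs of Tru70 and 27, 16 and 0 counts in the IPs, and no count in any NEB library. In SMTseq4 the IPs held 10, 27 and 28 counts and the inputs 0, 2 and 4. In Tru4 they held 9, 38 and 40 against 9, 0 and 0. No input of SMTseq0.25, NuG or SMTer held a count, and their IPs held 0, 17 and 49 (SMTseq0.25), 2, 4 and 11 (NuG) and 3, 0 and 0 (SMTer).

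Every member was higher in the IP in every protocol where it was tested. By edgeR with Benjamini-Hochberg adjustment, 10 of 10 passed in Tru70, where 18.1% of all genes tested were higher in the IP, and 10 of 10 in SMTseq4 (30.4% of all genes), SMTseq0.25 (19.8%), Tru4 (25.9%), NuG (24%) and NEB (5.82%). In SMTer, limma on log2(RPKM + 1) called 9 of the 9 members tested (11.6% of all genes), and Adgre1 fell below the filter of a mean of 1 RPKM. That mean took both fractions together. Timd4, Marco, Csf1r, Cd163, Folr2 and Aif1 had input means below 1 RPKM and passed the filter only through their IPs. The count of members called is thus not independent of the filter. Without that filter 8 of 10 passed, and by edgeR on the SMTer exon counts 7 did. The median log2 change of the members was 4.73 in Tru70, 4.83 in SMTseq4, 4.75 in SMTseq0.25, 4.72 in Tru4, 4.18 in NuG, 5.18 in NEB and 3.01 in SMTer. The order between protocols depends on the scale. For each member, the IP-to-input ratios of the same mouse, scaled to library size alone, were averaged as a geometric mean. The median of this ratio over the members was 35.21 in Tru70, 53.86 in NuG and, in RPKM, 34.56 in SMTer. Across all genes tested in Tru70 the median was -0.03. No member was lower in the IP, where 16.7% of all genes tested were lower in Tru70, 28.7% in SMTseq4, 17.1% in SMTseq0.25, 24.2% in Tru4, 20.9% in NuG, 5.34% in NEB and 7.04% in SMTer. The lowest IP library stood above the highest input library for 10 of 10 members in all 7 protocols, in SMTer on the RPKM scale; this held for 34.1% of all genes tested in Tru70, 47.6% in SMTseq4, 38% in SMTseq0.25, 43.2% in Tru4, 74.7% in NuG, 26.2% in NEB and 20.2% in SMTer. Both fractions came from the same livers, so these changes compare pulled-down RNA with RNA of the whole tissue. In these bulk samples, the number of cells behind a level and the RNA per cell cannot be told apart.

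**Figure D1:**
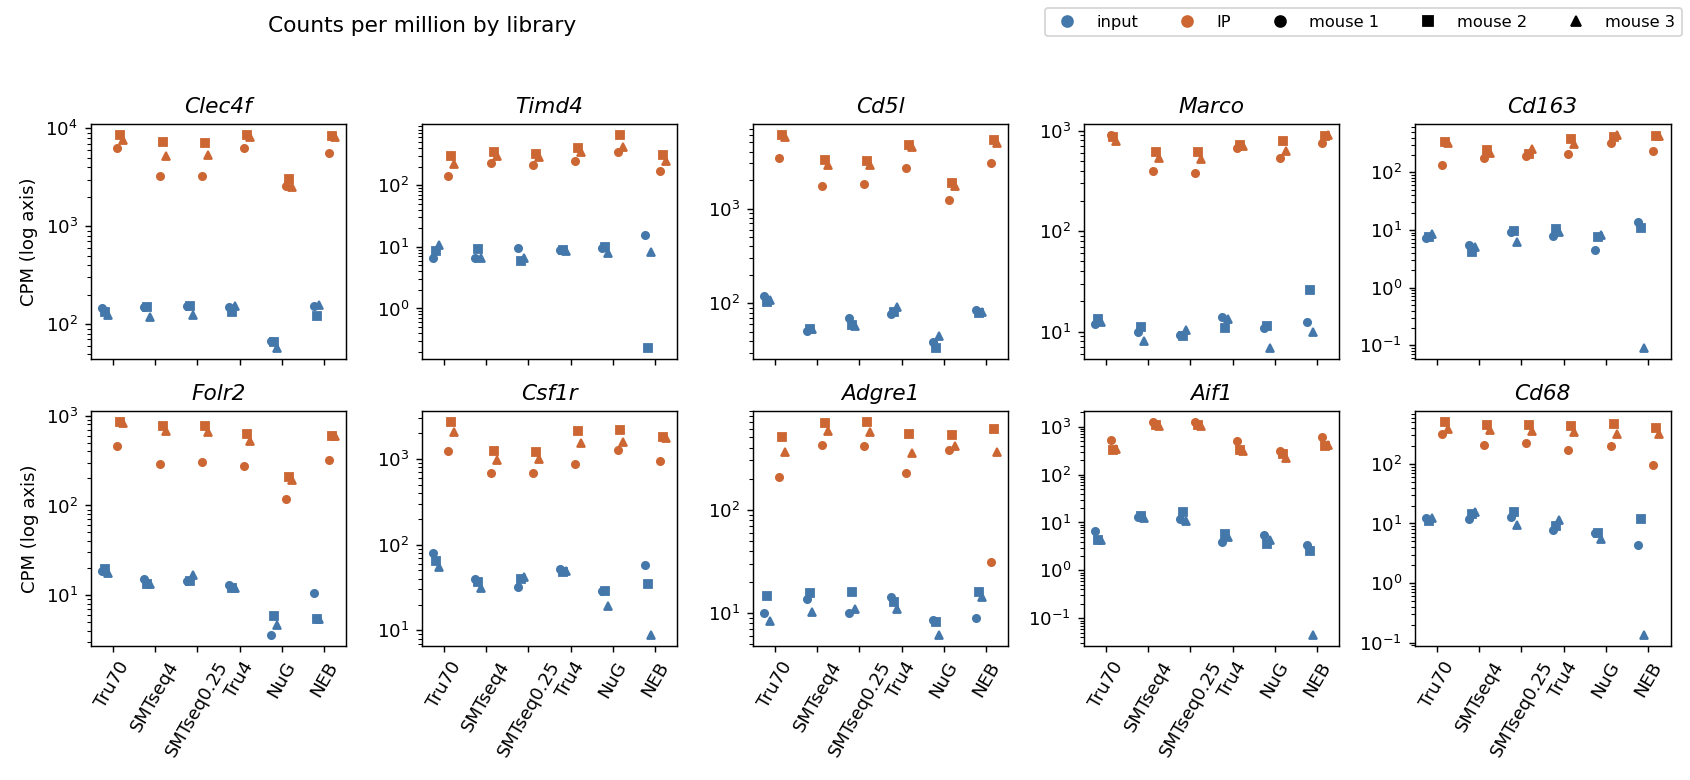
Level of each gene in CPM (counts per 1000000 exon counts of the library, log axis) in every library of the 6 protocols analysed as counts, blue for input and orange for IP, with 1 symbol per mouse. The IP points lie above the input points in every panel, and the NEB inputs scatter most.

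Clec4f, a C-type lectin receptor of Kupffer cells, had the highest mean level of the members in the IP in all 6 protocols analysed as counts. In Tru70 it reached 6314, 8647 and 7533 CPM in the IPs of mice 1, 2 and 3, and 147.6, 132.3 and 122.8 CPM in the inputs. The log2 change was 5.37 ± 0.22 (SE), adjusted p = 3.4e-06. In SMTseq4 the IPs held 3292, 7190 and 5212 CPM against 148.5, 150.2 and 119.2 CPM, a log2 change of 4.67 ± 0.30. The IPs of mouse 1 lay lowest in both protocols, while its inputs did not. NuG had lower levels in both fractions, 2567, 3034 and 2532 CPM in the IPs and 68.0, 65.0 and 57.0 CPM in the inputs. Scaled per exon length, Clec4f ranked 9 among 21697 protein-coding genes in the Tru70 IP and 760 in the input.

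Timd4, a receptor for phosphatidylserine on dying cells, was far less abundant. Its Tru70 IPs held 143, 300.3 and 222 CPM and its inputs 6.63, 8.52 and 10.8 CPM. The log2 change of 4.23 ± 0.31 was the lowest of the members in that protocol. In SMTseq4 the IPs held 233, 342 and 296 CPM and the inputs 6.66, 9.06 and 6.59 CPM, a log2 change of 4.73 ± 0.22. The fractions did not overlap in either protocol.

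The scavenger receptor cysteine-rich members rose with them. Cd5l, a secreted protein of tissue macrophages also called AIM, had 3419, 6055 and 5729 CPM in the Tru70 IPs and 120, 104 and 110 CPM in the inputs, a log2 change of 5.06 ± 0.24. Its change was 5.07 ± 0.26 in SMTseq4 and 4.92 ± 0.25 in SMTseq0.25. Marco, a receptor for bacteria and particles, had 898, 871 and 798 CPM in the Tru70 IPs and 11.98, 13.26 and 12.55 CPM in the inputs, and its IPs varied least among the mice of the 10 members in this protocol. Its log2 change was 5.67 ± 0.23. Cd163, which takes up haptoglobin-bound hemoglobin, had 131, 330 and 315 CPM in the Tru70 IPs and 7.17, 7.52 and 8.41 CPM in the inputs, with mouse 1 below the other two in the IP. Its log2 change was 4.60 ± 0.33.

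Folr2, a folate receptor of resident macrophages, held 461, 857 and 824 CPM in the Tru70 IPs and 18.7, 19.6 and 17.6 CPM in the inputs, a log2 change of 4.81 ± 0.25. NuG detected it at lower levels, 117, 206 and 190 CPM in the IPs and 3.61, 5.91 and 4.70 CPM in the inputs, with a log2 change of 3.58 ± 0.26, or 5.17 ± 0.29 without composition factors. Csf1r, the receptor for the growth factors CSF1 and IL-34, had 1237, 2734 and 2053 CPM in the Tru70 IPs and 79.8, 64.6 and 55.5 CPM in the inputs. Its log2 change was 4.47 ± 0.29, and in NuG it was 4.47 ± 0.25.

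The pan-macrophage members behaved alike in direction. Adgre1, the adhesion receptor F4/80, had 206, 505 and 366 CPM in the Tru70 IPs and 10.04, 14.59 and 8.38 CPM in the inputs, a log2 change of 4.57 ± 0.35. Cd68, a lysosomal glycoprotein, had 320, 512 and 392 CPM against 12.5, 11.0 and 12.5 CPM, a log2 change of 4.65 ± 0.23. Aif1, an actin-bundling protein, had the largest change among the members in Tru70, with 518, 331 and 342 CPM in the IPs against 6.55, 4.26 and 4.33 CPM. Its log2 change was 5.91 ± 0.36. Both SMART-Seq v4 amounts gave Aif1 higher levels, at 4 ng 1258, 1099 and 1025 CPM in the IPs and 12.9, 13.7 and 12.4 CPM in the inputs, while the log2 change was 5.90 ± 0.23.

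**Figure D2:**
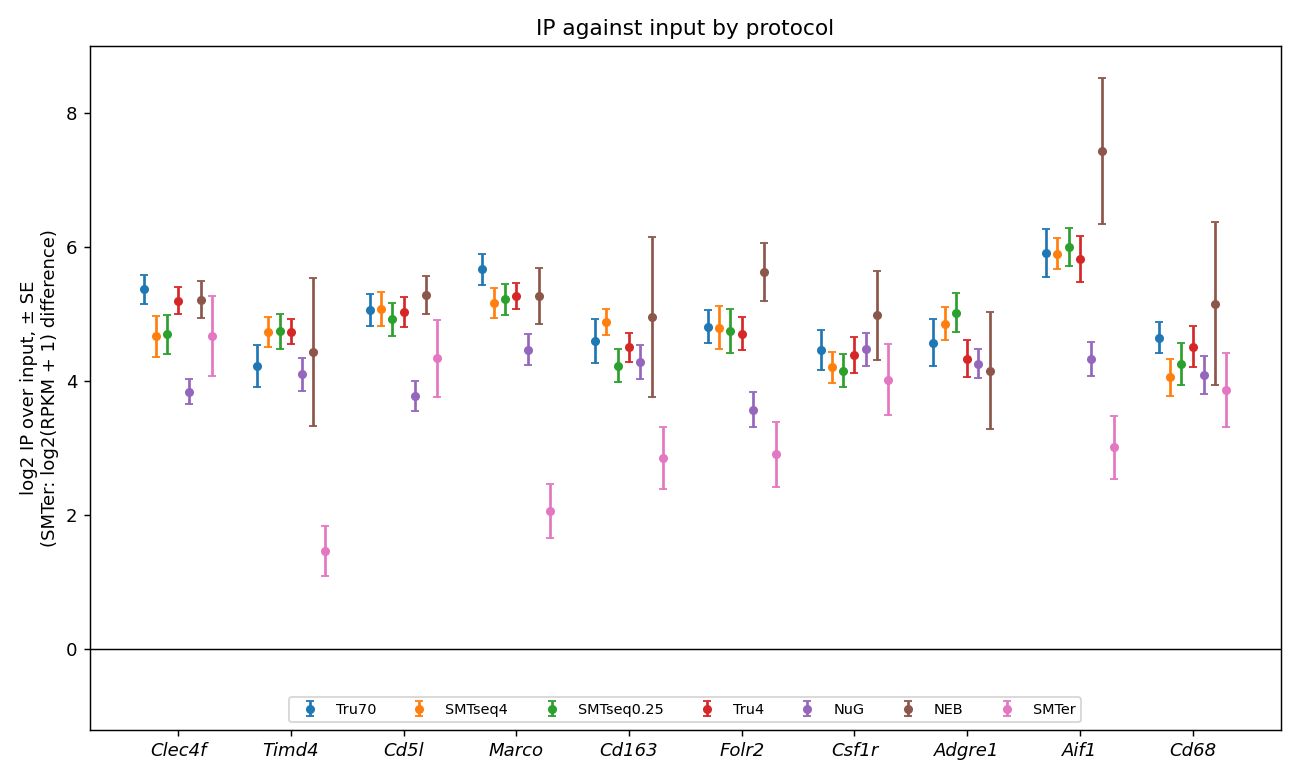
Fitted log2 change of IP over input with its standard error for each gene (horizontal axis) in the 7 protocols (colours). SMTer values are differences of log2(RPKM + 1), which understate the change of low genes, and Adgre1 has no SMTer point. In NEB the error bars of Timd4, Cd163, Aif1 and Cd68 are longest.

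The order of levels between the genes was taken from counts per exonic kilobase, scaled to the same sum in every library. In the Tru70 IP it ran Clec4f, Cd5l, Folr2, Marco, Csf1r, Cd68, Aif1, Adgre1, Timd4, Cd163. The libraries of Cd5l and Folr2, and those of Aif1 and Adgre1, did not overlap, whereas all other neighbours did. Clec4f held 3664, 6193 and 5631 and Cd5l 2408, 5263 and 5197 on this scale. In the SMTseq4 IP Aif1 moved to the third place with 1189, 1190 and 1114, apart from Folr2 below it. Cd163 was last in the IP in all 6 protocols. In the input it was last in 5 of them, and in NEB Aif1 stood below it.

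NEB was the protocol in which the members varied most in the input. The median coefficient of variation of the members over the 3 inputs was 0.632 in NEB and 0.0882 in Tru70, while over the IPs it was 0.294 and 0.296. Aif1 had 3.36, 2.59 and 0.0447 CPM in the NEB inputs, the last from 1 count. Cd163 had 13.9, 10.7 and 0.0894 CPM, and Cd68 had 4.30, 11.8 and 0.134 CPM. The NEB input of mouse 3 was thus the lowest for these genes, at 3 counts or fewer. Timd4 had 15.6, 0.228 and 8.14 CPM, with mouse 2 low. Adgre1 stood out in the IP, at 31.5, 598 and 363 CPM, with mouse 1 low. Its change was 4.16 ± 0.87, adjusted p = 0.016. Leaving out mouse 1, 2 or 3 left 6, 5 and 7 of the 10 members past the threshold in NEB. Clec4f, Cd5l, Marco and Folr2 passed in each of these fits.

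In SMTer the levels are given in RPKM. Clec4f had 66.0, 70.2 and 139 RPKM in the IPs and 3.06, 1.58 and 2.84 in the inputs, a log2(RPKM + 1) difference of 4.67 ± 0.60. Csf1r had 20.3, 18.7 and 37.7 RPKM against 0.697, 0.295 and 0.727, a difference of 4.02 ± 0.53. Mouse 3 was highest in the IP for all 10 members in SMTer. Timd4 had 1.42, 1.81 and 3.49 RPKM against 0.145, 0.0621 and 0.188, a difference of 1.47 ± 0.37. Without mouse 1, Marco and Timd4 no longer passed, leaving 7 of 9. On the SMTer exon counts the fractions of Folr2 overlapped, with 6.46, 15.5 and 35.7 CPM in the IPs and 9.33, 6.56 and 19.8 CPM in the inputs. These rest on few counts, 3, 10 and 25 in the IPs and 7, 5 and 15 in the inputs. Marco held 16, 25 and 47 counts in the IPs and 10, 8 and 11 in the inputs. There edgeR gave Folr2 a change of 0.23 ± 0.72, adjusted p = 0.86, and Marco 1.37 ± 0.55, adjusted p = 0.078, against limma differences of 2.90 ± 0.48 and 2.06 ± 0.40 on the log2(RPKM + 1) scale. With the mouse as a block, 9 of 9 members passed and 1236 of all 5540 genes were higher in the IP, against 645 without it.

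The change of each member was compared with that of Tru70 by an interaction term. It took libraries of the same mouse in both protocols as independent. In SMTseq4, SMTseq0.25, Tru4 and NEB 0 members passed, where 0.37%, 0.167%, 0% and 0.00652% of all genes did, and 0 of the 10 members had an unadjusted p under 0.05 by edgeR in any of the 4. Per the study's methods, Tru4 differs from Tru70 in RNA amount, end-repair reaction, size selection and PCR cycles. For Tru4 the differences ran from -0.43 ± 0.23 for Marco to 0.48 ± 0.32 for Timd4. Between SMTseq4 and Tru70 they ran from -0.65 ± 0.32 for Clec4f to 0.56 ± 0.35 for Timd4. A difference that misses the threshold does not show that the protocols act alike. In NuG 1 member passed (0.279% of all genes): the change of Clec4f was lower than in Tru70 by -1.60 ± 0.24 on the log2 scale, adjusted p = 0.0060. With the mouse as a block, 5 of the 10 members passed in NuG and 125 genes in place of 45.

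The NuG value moved with the scaling. Genes of mitochondrial DNA took 57.6 to 59.0% of counts in the NuG inputs and 9.23 to 15.6% in the IPs, against 3.30 to 4.11% and 0.361 to 0.442% in Tru70. Without composition factors the Clec4f difference was -0.38 ± 0.25, adjusted p = 0.25, and the median change of all genes tested in NuG was 1.6 in place of 0.02. The IP-to-input change of Clec4f in NuG itself was 3.84 ± 0.19 with the factors and 5.43 ± 0.21 without them. Without replicate 2 or 3 the difference was -1.54 (adjusted p = 0.23) and -1.58 (adjusted p = 0.15). The part of the mitochondrial share in the result was not tested.

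In SMTer 2 members differed from Tru70 (3.6% of all genes), both on the log2(RPKM + 1) scale. Marco changed less by -1.95 ± 0.33, adjusted p = 0.0051, and Aif1 by -1.97 ± 0.37, adjusted p = 0.010 (limma). With a pseudocount of 0.1 in place of 1, the Marco difference was -1.37, adjusted p = 0.47, and that of Aif1 -1.19, adjusted p = 0.62. Leaving out mouse 1 or mouse 2 also ended both calls, with adjusted p between 0.13 and 0.29.

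Among the IPs, mouse 1 held the least of most members. Folr2, Cd5l, Timd4, Cd163 and Cd68 were lowest in the IP of mouse 1 in 7 of 7 protocols, and Clec4f, Marco, Adgre1 and Csf1r in 6 of 7. The median ratio of mouse 1 to the mean of mice 2 and 3 was 0.540 for Folr2, 0.588 for Cd5l and 0.502 for Cd68. Aif1 ran the other way: mouse 1 was highest in 6 of 7 protocols, with a median ratio of 1.30. In the inputs mouse 1 was lowest in 0 of 7 protocols for Clec4f, 2 of 7 for Cd5l and 4 of 7 for Cd163, the highest number among the members. With composition factors, mouse 1 stayed lowest in 6 of 6 protocols for Folr2, Cd5l, Timd4 and Csf1r, in 5 of 6 for Cd163, Adgre1 and Cd68, in 4 of 6 for Clec4f and Marco, and highest in 6 of 6 for Aif1. The 7 protocols measured the same RNAs and are not replicates of this order. A difference between animals and one between their IP preparations cannot be told apart. Mouse numbers follow the labels, whereas the study's read totals have mice 1 and 3 exchanged in Tru70, Tru4, NEB, NuG and SMTer. Erythroid markers took 22.58, 16.27 and 12.95% of the counts of the Tru70 IPs of mice 1, 2 and 3, and their part in this order was not tested.

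**Figure D3:**
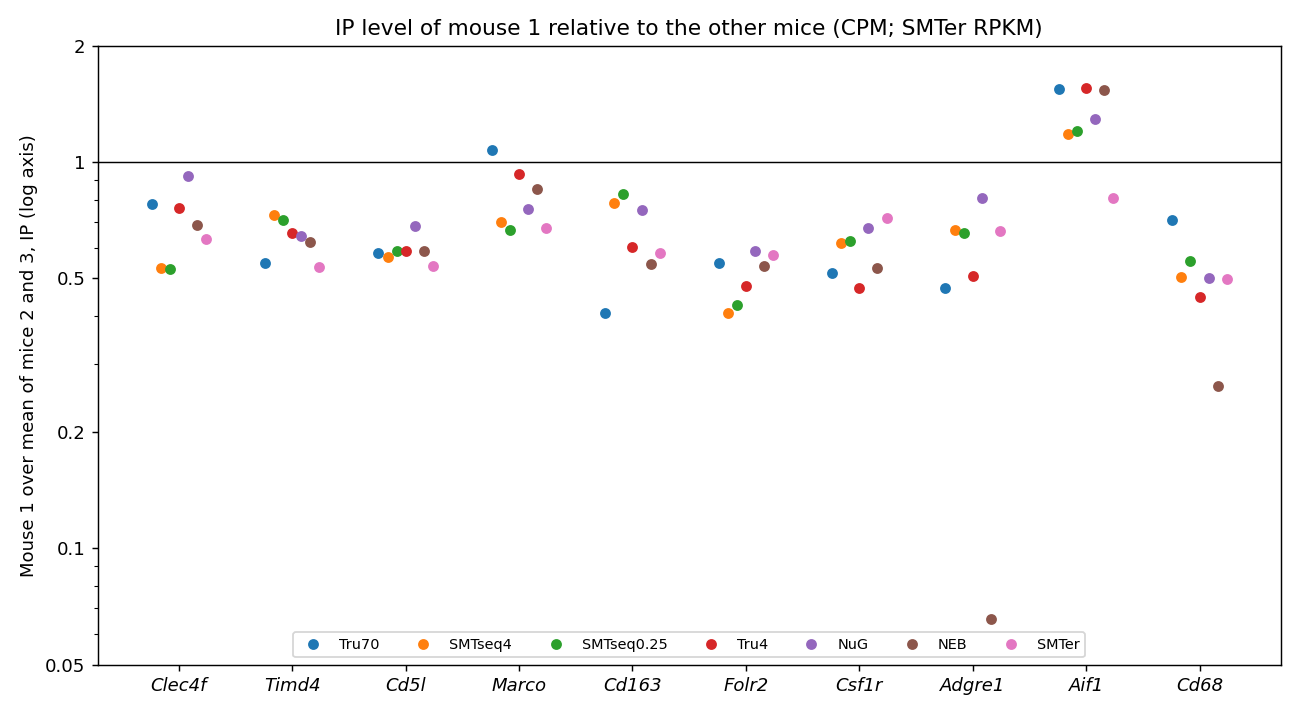
Level of each gene in the IP of mouse 1 divided by the mean of mice 2 and 3 (log axis), with 1 point per protocol; CPM, and RPKM for SMTer. All points lie below 1 except Marco in Tru70 and 6 of the 7 of Aif1, and the lowest is Adgre1 in NEB.

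The 10 members together took 1.37, 2.11 and 1.86% of the counts in the Tru70 IPs and 0.0421, 0.0379 and 0.0363% in the inputs. In SMTseq4 they took 0.872, 1.59 and 1.28% against 0.0315, 0.0322 and 0.0275%. The IP libraries lay far above the inputs in both.

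Further Kupffer cell genes moved as the members did. In Tru70, 17 of 18 rose, with a median log2 change of 4.55, and in NuG 18 of 18 rose with a median of 3.80. The complement subunits C1qa, C1qb and C1qc rose by 5.77 ± 0.24, 5.35 ± 0.26 and 4.92 ± 0.23, and Vsig4, a complement receptor, by 4.42 ± 0.30. Pltp, a phospholipid transfer protein, had 41.1, 344 and 212 CPM in the IPs and 29.3, 54.5 and 78.8 CPM in the inputs, adjusted p = 0.12. In NuG C1qa had 120.4, 142.9 and 109.8 CPM in the IPs and 15.77, 15.23 and 13.38 CPM in the inputs, a change of 1.497 ± 0.19. That differed from Tru70 by -4.35 ± 0.27, adjusted p = 4.2e-07 (edgeR). Both the change and the difference include the composition factors, with which NuG values moved as given for Clec4f. The part of these factors in the C1qa values was not tested.

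Of 16 macrophage transcription factors, 14 rose in Tru70, Cebpa fell and Smad4 did not pass, with a median of 2. Spi1 had 201, 335 and 313 CPM in the IPs and 7.91, 9.91 and 6.79 CPM in the inputs, a change of 4.66 ± 0.25. Irf8 changed by 4.48 ± 0.21. Spic, a factor of iron-handling macrophages, changed by 4.70 ± 1.08, with inputs of 3.22, 0.0296 and 0.312 CPM. Nr1h3, which encodes LXRα, rose by 1.10 ± 0.17, from 122 to 130 CPM in the inputs to 358 to 368 CPM in the IPs. Cebpa, also a factor of hepatocytes, fell by 0.83 on the log2 scale.

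In the Csf1r pathway, 10 of 12 genes rose in Tru70, and the ligands did not pass. Csf1 had 2.19, 11.6 and 13.3 CPM in the IPs and 10.8, 8.67 and 10.4 CPM in the inputs, adjusted p = 0.44. Il34 had 0.0358, 0.772 and 4.24 CPM against 2.60, 0.385 and 5.64 CPM, adjusted p = 0.55, and in SMTseq4 it was lower in the IP by -1.92 ± 0.39. The signalling genes Pik3cd, Inpp5d and Tyrobp rose by 4.97 ± 0.24, 4.45 ± 0.27 and 4.88 ± 0.29. Of the 14 pan-macrophage and phagocyte genes, all rose in Tru70, SMTseq4, SMTseq0.25, Tru4 and NuG, 12 of 14 in NEB and 8 of the 8 tested in SMTer. Lyz2, which encodes lysozyme, rose by 5.37 ± 0.26, Ctss, a cathepsin, by 5.63 ± 0.24 and Mertk, a receptor for dying cells, by 1.92 ± 0.32.

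The scavenger receptor cysteine-rich family did not move as a whole. In Tru70, 12 of its 14 genes were tested and 6 rose, among them the 3 members with Msr1 (3.78 ± 0.34) and Lgals3bp (1.86 ± 0.28). The sixth, Cd6, is a T cell gene, listed at 0 in all 3 inputs. The extracellular matrix oxidases Loxl2, Loxl3 and Loxl4 did not pass.

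Markers of other blood cells rose by amounts near those of the members. In Tru70, 6 of 6 monocyte markers rose (median 5.45), 7 of 7 T cell markers (5.37), 5 of 5 tested B cell markers (5.70), 5 of 5 natural killer cell markers (5.95), 5 of 6 dendritic cell markers (4.63), 4 of 8 tested neutrophil and granulocyte precursor markers (4.84), 6 of 7 erythroid markers (5.84) and 4 of 5 platelet and megakaryocyte markers (4.48). Hbb-bs and Hba-a2, the globin genes, rose by 6.15 ± 0.38 and 5.84 ± 0.36. Cx3cr1 and Ccr2 of monocytes rose by 4.92 ± 0.42 and 5.26 ± 0.67. Cd4 and Lck of T cells rose by 4.79 ± 0.52 and 5.14 ± 0.78, and Cd79b and Pax5 of B cells by 5.95 ± 0.54 and 4.43 ± 0.55. Klrk1 and Nkg7 rose by 5.39 ± 0.82 and 5.95 ± 0.93, Itga2b and Pf4 of platelets by 2.98 ± 0.50 and 5.16 ± 0.42, and S100a9 of neutrophils by 5.09 ± 0.63. Ngp, Clec9a and Zbtb46 had changes of 2.84 ± 1.66, 2.26 ± 0.50 and 0.50 ± 0.52, and of these Clec9a passed.

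The summed levels of monocyte, T cell and B cell markers were lower than that of the members, and that of erythroid markers was higher. In the Tru70 IPs monocyte markers took 0.0215 to 0.0284% of counts, T cell markers 0.0188 to 0.0232% and B cell markers 0.0176 to 0.0205%, where the members took 1.37 to 2.11%. Erythroid markers took 12.95 to 22.58%. The part of these cells in the member values was not tested.

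Most markers of the other liver cells fell or did not pass. All 9 hepatocyte markers tested fell in Tru70 (median -2.42), Alb by -3.02 ± 0.20 and Ttr by -2.08 ± 0.21. Of 8 stellate cell and fibroblast markers 6 fell (median -1.63), among them Col3a1 (-1.68 ± 0.25) and Dcn (-2.61 ± 0.22). Of 10 sinusoidal endothelial markers 1 rose and 4 fell (median -0.67), with Stab2 at 0.51 ± 0.20 and adjusted p = 0.073, and Clec4g at -1.50 ± 0.43. The 1 that rose was Cdh5, a cadherin of endothelial junctions named after its values were seen, by 2.46 ± 0.26, adjusted p = 0.00013. It rose in all 7 protocols, and 1 to 3 markers of this list rose in each. Of 4 cholangiocyte markers 1 fell, Krt19, listed at 0 in the IPs, and Sox9 did not pass (-2.44 ± 1.28).

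**Figure D4:**
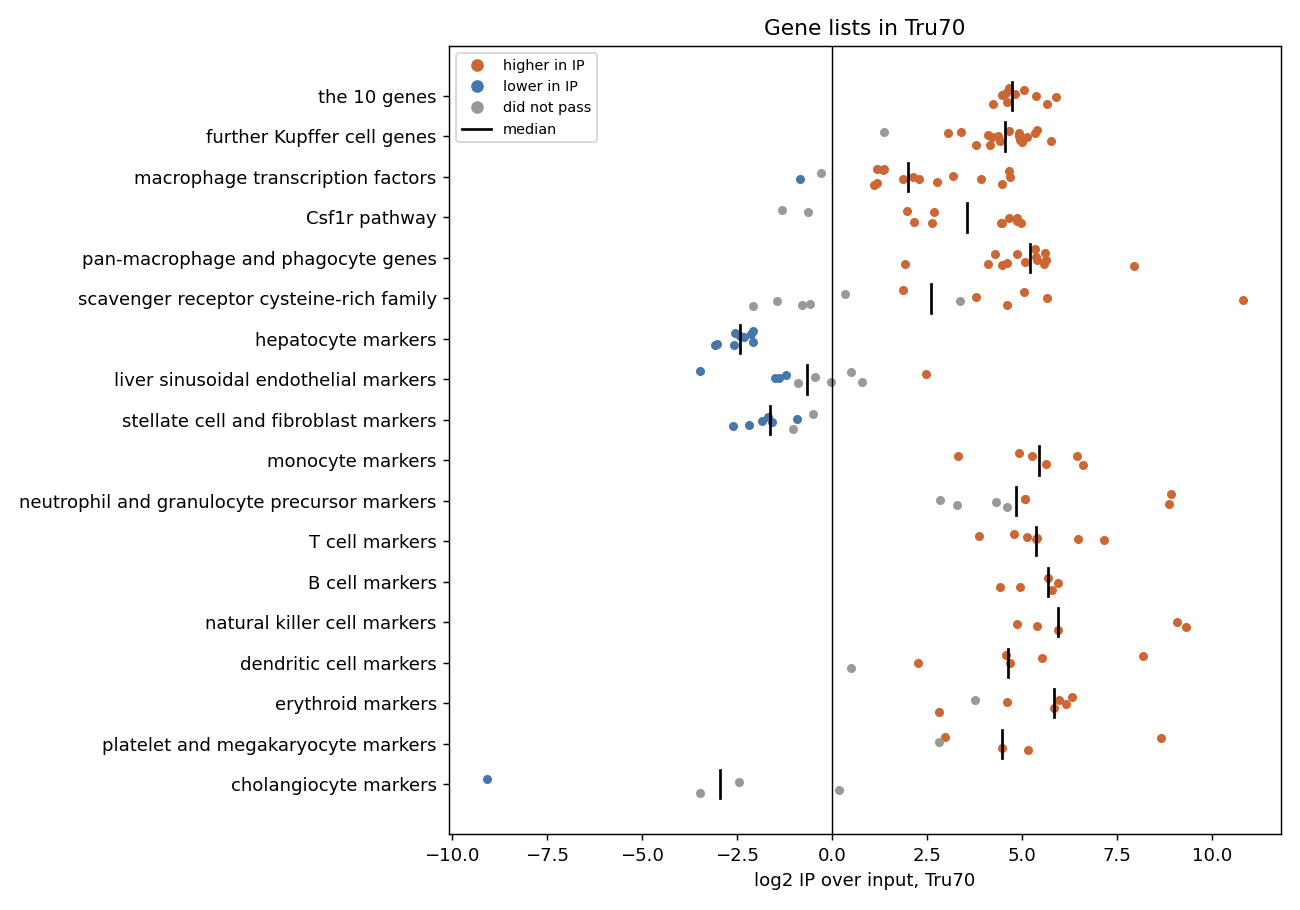
Fitted log2 change of IP over input in Tru70 for every tested gene of each list, with the median as a bar; orange rose, blue fell and grey did not pass. The macrophage and blood cell lists lie to the right of 0, and the hepatocyte list to the left.

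The genes of most like pattern were sought among 13589 genes tested in Tru70, SMTseq4 and SMTseq0.25, by Pearson correlation of log2(CPM + 1), centred per protocol, with the mean of the members over 18 libraries. They were C1qc (0.999), H2-Aa (0.999), H2-Ab1 (0.999), Tyrobp (0.999), Ctss (0.998), H2-DMa (0.998), Cd300ld (0.998), Actr3 (0.998), Sdc3 (0.998) and H2-Eb1 (0.998). Over 0.9 lay 19.4% of the genes outside the list, since the points share the contrast of IP and input. Within the 9 IP libraries the correlation with the member mean was 0.987 for Cd5l and 0.981 for Csf1r, and -0.836 for Aif1. These are descriptions, and the libraries share 3 mice.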

How the data were processed

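RNA-seq libraries of 3 mice, 2 fractions and 7 protocols were used. Per the labels and the study's methods, the authors trimmed reads, aligned them with TopHat to GRCm38 and counted reads per gene; the deposited exon counts are raw, and reads tallied under no gene (2.34 to 53.4% without a feature and 15.2 to 63.3% not aligned uniquely) stayed out of totals. The RPKM values deposited by the authors were scaled to about the whole gene span in the count protocols (median ratio of implied length to span 0.751 to 0.984). This was not shown for SMTer (0.0402 over 92 genes). They served for SMTer, where 76.8 to 93.8% of reads that were counted, ambiguous or without a feature had no feature. Per the study's methods, strand was not used.

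Counts were tested per protocol with edgeR 4.0.16 (R 4.3.3; TMM factors, filterByExpr, quasi-likelihood, adjusted p threshold 0.05), SMTer with limma-trend on log2(RPKM + 1) at a mean of at least 1 RPKM. Standard errors of edgeR values were derived from the test statistic. Fits were tested on counts simulated for Tru70, NuG and NEB only, with the same spread for every gene, which is simpler than the data. The RPKM values of SMTer were not simulated. The members, lists and promoter motif were chosen with earlier results of these data known. Named were the 10 members, genes of the macrophage lists, and of each other list the 2 with the highest mean CPM in the Tru70 inputs. Files of the same number were taken to come from the same mouse, as labelled. The study's read totals give 20 libraries another mouse number, with mice 1 and 3 exchanged. Deviations of same-numbered libraries correlated at 0.041 to 0.42 in 6 protocols and at -0.025 to 0.026 in NEB. P-values of IP against input measure the spread of 3 mice within each fraction, unpaired unless a block is named. Those of the differences from Tru70 do not, since the same 3 mice stood in both protocols as if independent. The block there joined the fractions of a mouse within a protocol only.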

Additional observations from a re-analysis of the deposited data

Results flagged for a closer look

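The IP-to-input change of 3 genes differed from that of Tru70 by a test of the difference. Clec4f changed less in NuG (-1.60 on the log2 scale). Marco (-1.95) and Aif1 (-1.97) changed less in SMTer on the log2(RPKM + 1) scale. Each call ended under at least 1 alternative, as given with the comparison. Groups of 3 were too small for a test of single samples.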

How the results depend on the processing

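Of 743 alternative values, 640 were of single genes. Of these, 542 kept their direction and side of the threshold, 98 no longer passed and none reversed. Most of the 98 came from fits with the fractions as labelled. The alternative values that were not of single genes were counts of members, of which 18 moved by over 1.5 times or to or from 0. A count that changed less was taken as the same. With fractions as labelled, 0 members passed in Tru4, NuG, NEB and SMTer, also with a replicate block in Tru4, NuG and NEB (0 each, chosen after seeing the data), and 0 in the differences of NuG and SMTer from Tru70. Leaving out 1 replicate gave 5 to 7 members in NEB, 0 to 1 in the NuG difference and 0 to 2 in the SMTer difference. The NuG difference gave 5 members without a filter on low counts and 5 with the replicate block; the SMTer difference gave 0 with a pseudocount of 0.1. The replicate block changed no other count of members by over 1.5 times. The cause of these moves was not tested.

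Counts of all genes higher in the IP moved more. Library totals without TMM factors moved the median log2 change of all genes to 0.407 (Tru70), 0.561 (SMTseq4), 0.536 (SMTseq0.25), 0.473 (Tru4), 1.6 (NuG) and 0.493 (NEB), and the higher share of calls from 52, 51.5, 53.6, 51.6, 53.5 and 52.1% to 72.3, 73.1, 73, 75.4, 96.5 and 73.6%. NEB gave 704 genes, 1520 with DESeq2 and 215 to 358 without 1 replicate. Tru70 gave 2665, and 1706 and 1561 without replicates 2 and 3. SMTer gave 645, 190 without a filter, 1334 centred on the median (46.8% of calls higher, 62.3% uncentred), 110 without replicate 1 and 373 without replicate 3. Difference calls of all genes were 61 in SMTseq4 and 27 in SMTseq0.25, and 0 without any 1 replicate. Higher and lower differences from Tru70 were 21 and 24 in NuG, 198 and 174 without a filter, 4671 and 46 without TMM factors and 65 and 60 with the replicate block. In SMTer they were 65 and 202, 19 and 7 with a pseudocount of 0.1, 441 and 431 centred and 230 and 369 with the block. Without a filter, 194 and 14 differed in SMTseq4 and 271 and 33 in SMTseq0.25. NEB inputs of 1 to 3 counts limit Aif1, Cd163 and Cd68 there.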
